A study of Mus musculus with 46 samples.

Results

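The genes described here encode the proteins of the mitochondrial ribosome. They were taken as all rows of the expression table whose symbol starts with Mrpl (large subunit) or Mrps (small subunit) and goes on with a digit, leaving out symbols marked as pseudogenes. The rule gave 76 of the 21671 genes in the table, 47 with an Mrpl symbol and 29 with an Mrps symbol. All 76 passed the filter on low values, and no library had a value of 0 for any of them.

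Mitochondria carry their own ribosomes, which translate the few messages of mitochondrial DNA into core subunits of the respiratory chain. The RNA of this ribosome is made in the organelle, whereas all of its proteins are encoded in the nucleus, translated in the cytosol and imported. Some of these proteins descend from bacterial ribosomal proteins, and others were added in the mitochondrial lineage. Myc is known to raise the expression of many nuclear genes for mitochondrial proteins, and hepatocytes are rich in mitochondria.

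Gene expression was measured by RNA sequencing of ribosome-depleted total RNA in liver and liver tumours of FVB mice. Normal liver served as control, with 1 library for each of 11 IDs. Myc tumours (16 libraries, 7 IDs) expressed a tet-Myc transgene that the liver-specific transactivator LAP-tTA switched on in utero. Myc-off tumours (8 libraries, 3 IDs) carried the same transgene, and its expression was stopped by doxycycline in the food for 16 h. MycVD tumours (11 libraries, 10 IDs) expressed the V394D form of the transgene in the same way. The labels give neither ages nor whether control livers carried the transactivator. Tumours of 1 ID were averaged, so n counts IDs, which were taken as animals. The labels do not say so, and if IDs are not animals the p-values measure only the spread between these samples.

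Values are exonic RPKM (eRPKM), reads scaled by gene length and library depth, a unit that allows levels to be compared between genes. A gene is said to have risen or fallen where limma gave a Benjamini-Hochberg adjusted p below 0.05 over all 14566 genes tested on the log2(eRPKM + 0.5) scale. Recovered depth ran from 3.25 to 12.6 M reads per library, and each member had at least 1 eRPKM in 3 or more IDs. For Myc itself the table gives 1.46 to 18.2 eRPKM in control liver, 5.41 to 11.1 in Myc, 2.65 to 11.6 in Myc-off and 2.67 to 9.86 in MycVD tumours. Since the labels do not say from which species the transgene came, this is no check of them. In 8 libraries (1 control, 5 Myc, 2 MycVD) Gapdh lay below 30 eRPKM, apart from the rest, and counts without them are given below. Every Myc-off ID has a higher number than any other ID, and whatever goes with that order cannot be told apart from the effect of doxycycline. Likewise every MycVD ID has a higher number than every Myc ID, so the same holds for the V394D form against Myc.

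Promoter sequences were available for 67 of the 76 genes in the RefSeq table (build GRCm38.p6, 250 bases before to 50 bases after the transcription start). The 4 windows below are shown because Mrps27 fell most after the switch-off, Mrps36 was high and did not fall, Mrpl36 holds 3 of the 4 motifs searched, and Mrpl22 pairs 2 motifs that recur in the set. Each runs 5′ to 3′ along the gene's own strand from 150 bases before the start through the first 21 bases of the transcript, and capitals mark matches to a motif.
Mrps27 (chr13:99344636-99344806, plus strand): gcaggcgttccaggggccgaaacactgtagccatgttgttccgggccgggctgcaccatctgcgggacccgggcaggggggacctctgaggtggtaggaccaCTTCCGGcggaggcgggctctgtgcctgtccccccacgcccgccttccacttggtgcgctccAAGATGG
Mrpl36 (chr13:73330859-73331029, plus strand): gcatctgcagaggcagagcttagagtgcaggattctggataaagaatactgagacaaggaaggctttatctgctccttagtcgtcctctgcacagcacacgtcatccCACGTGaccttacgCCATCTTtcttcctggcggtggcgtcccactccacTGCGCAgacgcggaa
Mrpl22 (chr11:58171514-58171684, plus strand): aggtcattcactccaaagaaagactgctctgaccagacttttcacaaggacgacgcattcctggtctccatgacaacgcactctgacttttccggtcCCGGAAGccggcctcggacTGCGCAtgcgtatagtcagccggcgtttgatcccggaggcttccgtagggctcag
Mrps36 (chr13:100744639-100744809, minus strand): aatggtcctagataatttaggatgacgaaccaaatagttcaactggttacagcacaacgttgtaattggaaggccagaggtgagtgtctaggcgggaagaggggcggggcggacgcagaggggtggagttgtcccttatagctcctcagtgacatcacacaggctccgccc

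The motifs were searched as exact letters on both strands: CCGGAAG, bound by ETS factors such as GABP; TGCGCA, a half-site of NRF1; AAGATGG, the core bound by YY1; and CACGTG, the E-box bound by Myc with Max. Mrps27 holds the ETS letters 48 bases before its start and the YY1 letters over its start region, both seen in the window above. CCGGAAG was present in 24 of the 67 genes (35.8%), against 18.2% of the 10650 tested genes with a promoter in the table. TGCGCA was present in 20 (29.9%, against 15%), and AAGATGG in 13 (19.4%, against 8.1%). CACGTG was present in 5 (7.5%, against 11.4%): Mrpl2, Mrpl20, Mrpl36, Mrpl37 and Mrps18c. The median GC content of the windows was 58.3% for the members and 60.0% for all tested genes. Of the 67 genes, 44 held at least 1 of the 4 motifs. The median log2 fold change after the switch-off was -0.48 in the 5 genes with CACGTG and -0.36 in the 62 without it, and it was -0.31 with and -0.41 without CCGGAAG. It was -0.42 with and -0.31 without TGCGCA, and -0.36 with and -0.41 without AAGATGG. These matches describe letters in the windows and show no binding.

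Summed over the 76 genes, expression was higher in both kinds of tumour than in control liver, and lay within the range of control liver after the switch-off. The sum was 2285 eRPKM in the lowest, 2586 in the median and 2924 in the highest control ID. Myc tumours had 2887, 2958 and 3615, and MycVD tumours 3044, 3173 and 3514. The 3 Myc-off IDs had 2318, 2376 and 2537, all below every Myc tumour and within the range of control liver. Among Myc tumours, ID125324 (3615) and ID125320 (3560) stood above the other 5, which lay between 2887 and 3081. Both include libraries with low Gapdh, as do ID128992 and ID128285. Relative to the median of all tested genes, the members lay at -0.06 to 0.01 log2 units in those other 5 IDs. The rise there was thus about that of all tested genes. In ID125320 and ID125324 the members lay at 0.24 and 0.26.

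**Figure D1:**
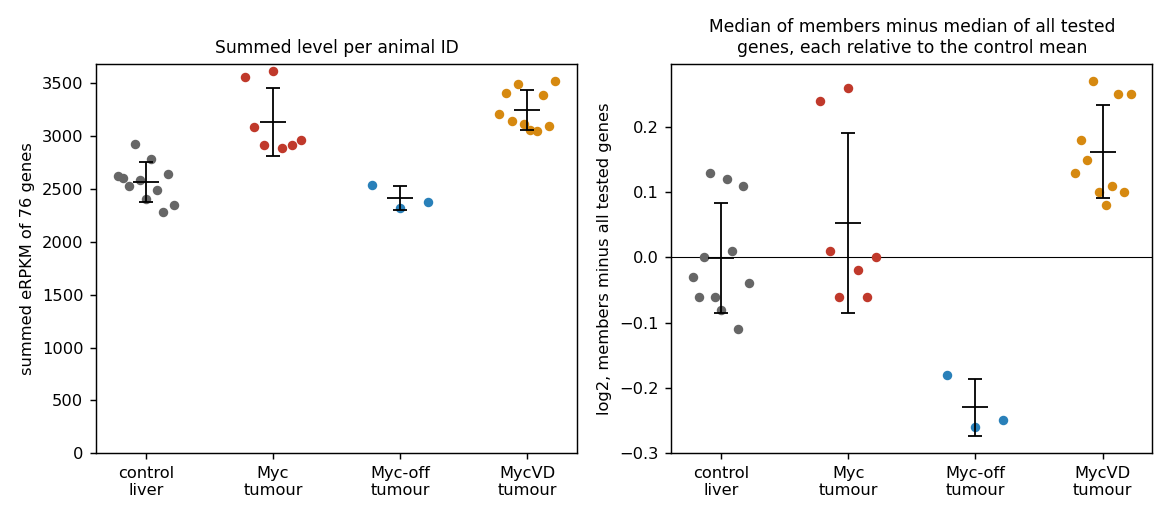
Left, summed eRPKM of the 76 genes in each animal ID of the 4 groups; right, the median log2 difference of the members from the control mean minus the same median over all tested genes. Points are IDs, and the black marks give the mean and SD. In the right panel the 3 Myc-off IDs lie at -0.26 to -0.18 and all 10 MycVD IDs at 0.08 to 0.27. Control IDs lie at -0.11 to 0.13. Of the Myc IDs, ID125320 and ID125324 lie at 0.24 and 0.26 and the others at -0.06 to 0.01.

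Levels differed widely between members within every group. Mrpl12, which forms the stalk that recruits translation factors and also binds mitochondrial RNA polymerase, had the highest level, with a mean of 96.1 eRPKM over the 4 groups. It averaged 94.9 ± 8.62 eRPKM in control liver (SD, n = 11), 105 ± 15.3 in Myc tumours (n = 7), 71.7 ± 17.2 in Myc-off tumours (n = 3) and 112 ± 11.3 in MycVD tumours (n = 10). Mrpl50, Mrpl30, Mrpl18 and Mrpl34 followed. The lowest 5 were Mrps25, at 8.16 eRPKM over the groups, Mrpl13, Mrps34, Mrpl33 and Mrps22. The gene lengths behind the eRPKM values of these 5 (recovered from the steps of the values) were 1383 bp for Mrps34 and 2480 to 6652 bp for the other 4, against 646 to 2103 bp for the 5 highest. Levels depend on the length used for each gene, differences between groups do not.

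The first comparison, Myc tumours against control liver, asks how these genes stand in an established tumour. Of the 76 genes 51 rose (67.1%) and 5 fell (6.58%), where 50.0% of all tested genes rose and 29.9% fell. The median log2 fold change of the members was 0.32, and that of all tested genes was 0.27. Single members ranged from -0.52 to 1.33, and 5 of them changed at least 2-fold, all upwards. The counts depended on the scaling: with median-ratio scaling 30 members rose and 16 fell (all tested genes, 41.1% and 38.3%) with a median of 0.07, against 0.05 over all genes. With quantile normalisation 53 rose and 6 fell, with a median of 0.37 against 0.06 over all genes, of which 41.0% rose and 37.6% fell. Of the 51 that rose, 27 were called higher in all alternatives, leave-one-out included. In 25 members (32.9%) every Myc ID lay above every control ID, a share near the 35.1% of all tested genes, and in 0 members every Myc ID lay below (18.7% of all tested genes). Without the 8 libraries with low Gapdh 54 members rose and 5 fell (all tested genes, 51.5% and 30.2%).

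The largest rise was that of Mrpl19, a large-subunit protein with a bacterial counterpart. It lay at 7.17 to 10.2 eRPKM in control liver (median 8.63) and at 21.1 to 24.3 in Myc tumours (median 23.3), with no overlap. The log2 fold change was 1.33 ± 0.08 (SE, adjusted p = 1.9e-15). Mrps25, found only in mitochondrial ribosomes, lay at 4.02 to 5.56 in control liver (median 4.96) and at 9.90 to 12.6 in Myc tumours (median 10.9), a log2 fold change of 1.10 ± 0.08 (adjusted p = 2.8e-14). Mrpl3, which lies near the catalytic centre of the large subunit, went from 14.4 ± 1.45 eRPKM (SD, n = 11) to 31.1 ± 3.27 (n = 7), which is 1.08 ± 0.07 on the log2 scale (adjusted p = 2.0e-15). Mrpl47, a protein of the region where the nascent chain leaves the ribosome, rose by 1.05 ± 0.12, and Mrps9, a protein of the small subunit's head, by 1.03 ± 0.06. Each of these 5 genes had all Myc IDs above all control IDs, as the plot of 9 members shows for Mrpl19, Mrps25 and Mrpl3. Mrpl47 was also high in libraries with low Gapdh, by 0.62 log2 units among the Myc libraries and 0.66 in the control library. Without the 8 libraries its rise kept the same call.

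Mrps36 carries a small-subunit symbol, but its product is known as a component of the oxoglutarate dehydrogenase complex of the citric acid cycle. It lay at 10.7 to 21.3 eRPKM in control liver (median 17.1) and at 26.9 to 35.6 in Myc tumours (median 29.9), a log2 fold change of 0.94 ± 0.12 (adjusted p = 1.1e-08). The gene names list 3 Mrps36 pseudogenes, and no source used here says how reads shared with them were counted. Mrps15 rose by 0.91 ± 0.06 log2 units. Mrps30 rose by 0.87 ± 0.07, and its product sits in the large subunit in spite of its name.

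The 5 genes that fell were few and mostly near the threshold. Mrpl14, which lies at the interface of the subunits, was at 55.5 to 79.8 eRPKM in control liver (median 65.3) and at 40.6 to 56.8 in Myc tumours (median 43.9). Its log2 fold change was -0.52 ± 0.09 (adjusted p = 3.0e-06), and it was called lower in all alternatives. The groups overlapped by the 1 Myc ID at 56.8. Mrpl43 stood at -0.23 (adjusted p = 0.041), Mrps24 at -0.19 (adjusted p = 0.041), and Mrpl27 at -0.22 (adjusted p = 0.0017) and Mrps21 at -0.19 (adjusted p = 0.047), the last 2 of which were at 0.07 and 0.06 with quantile normalisation. The calls of Mrpl43 and Mrps21 were each lost without 9 of the 18 IDs taken 1 at a time, and that of Mrps24 without 10. Mrpl55 (-0.18), Mrpl24 (-0.13) and Mrps16 (-0.08) did not pass. With quantile normalisation Mrps16 stood at 0.23 and was called higher (adjusted p = 5.3e-04 in limma's test).

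By role, 8 of the 10 mitochondria-specific small-subunit genes rose (80.0%), with a median of 0.57, as did 15 of 19 mitochondria-specific large-subunit genes (78.9%), with a median of 0.34. Of the genes with a bacterial counterpart, 17 of 30 in the large subunit (56.7%, median 0.27) and 10 of 16 in the small subunit (62.5%, median 0.24) rose, and 2 fell in each. Of all tested genes 50.0% rose, with a median of 0.27, so these 2 classes lay near all tested genes. Differences between these classes were not tested. The 3 copies of bacterial S18 differed in value. Mrps18a, whose product joins the large subunit, stood at 0.24 (adjusted p = 0.005) but at -0.01 with median-ratio scaling. Mrps18b stood at 0.18 (adjusted p = 0.022) but at -0.08 with that scaling. Mrps18c stood at 0.05 (adjusted p = 0.54) but at -0.20 with that scaling, where limma called it lower (adjusted p = 0.026). In the classes above only Mrps18c was counted with a bacterial counterpart, and Mrps18a and Mrps18b were counted as mitochondria-specific. Mrpl12 stood at 0.14 (adjusted p = 0.11) and Mrps12, the protein of the decoding centre, at 0.14 (adjusted p = 0.21), and both were at -0.11 with median-ratio scaling. Mrpl53 was not analysed here, and Mrpl58 is in the table under its older symbol Ict1, which the rule does not take.

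**Figure D2:**
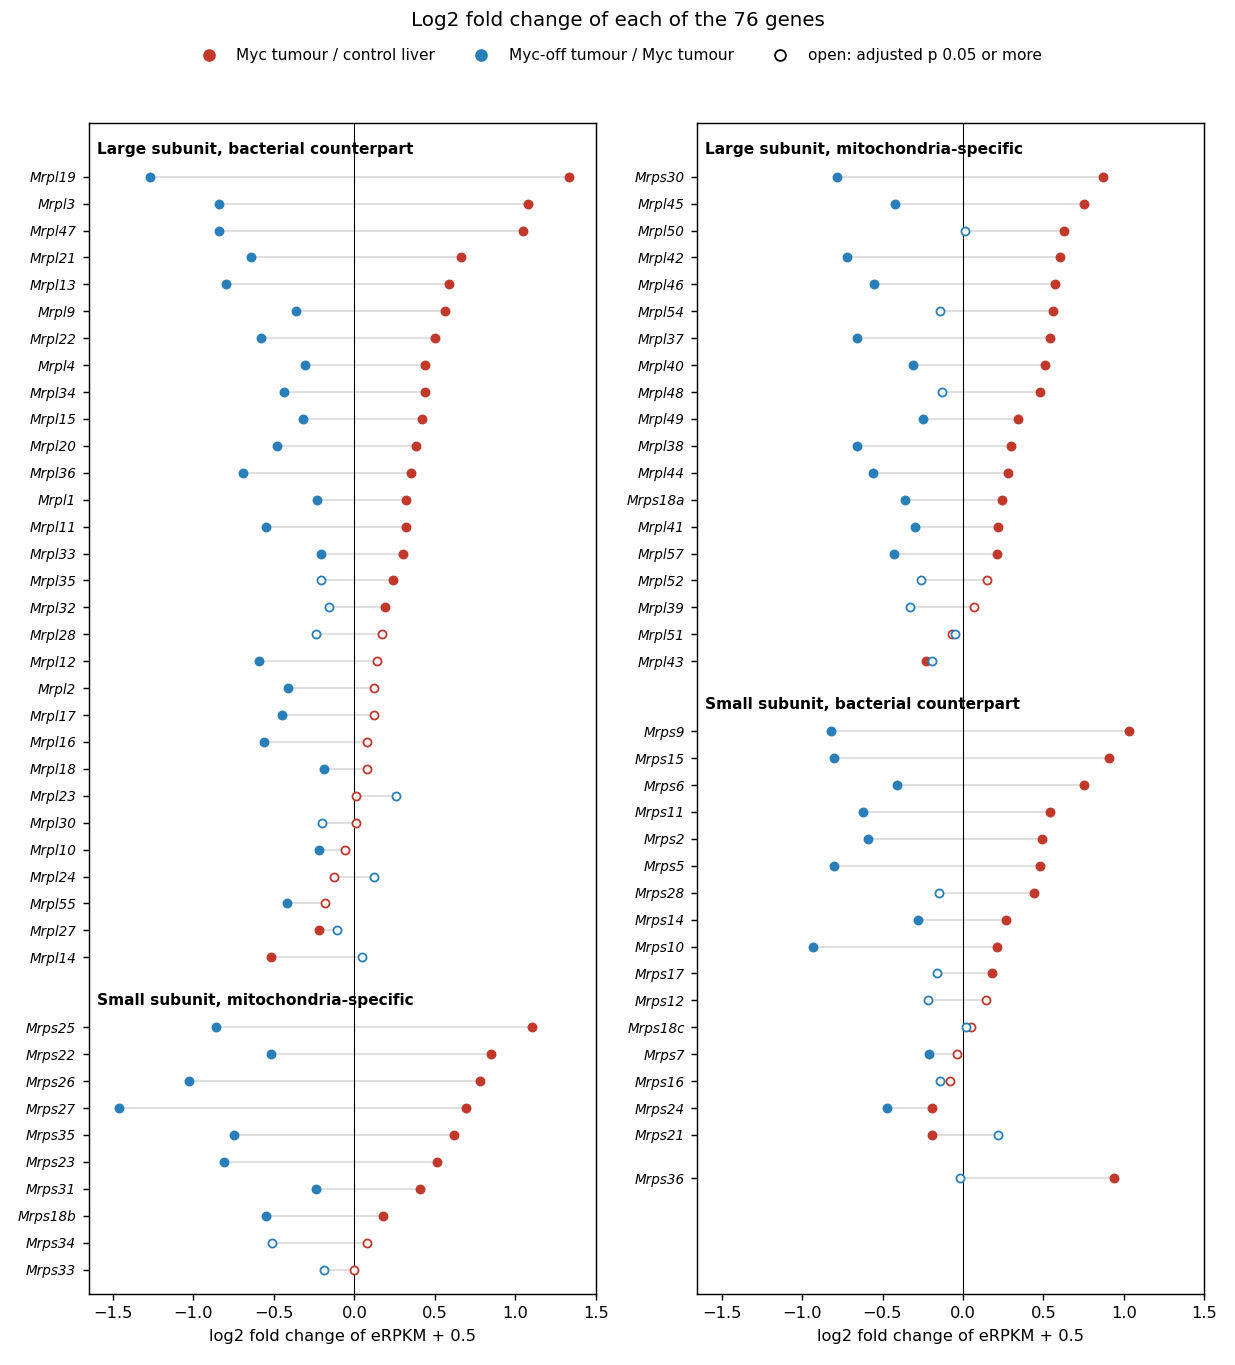
Log2 fold change of eRPKM + 0.5 for each of the 76 genes, Myc tumour against control liver (red) and Myc-off against Myc tumour (blue), by subunit and origin; filled points have an adjusted p below 0.05. Most red points lie right of 0 and most blue points left of it (medians 0.32 and -0.41), and Mrps36 and Mrpl50 have a filled red point with an open blue point near 0; with median-ratio scaling the red median is 0.07.

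The switch-off was examined by comparing Myc-off with Myc tumours, 16 h after doxycycline was given. Of the 76 genes 52 fell (68.4%) and 0 rose, where 28.2% of all tested genes fell and 22.2% rose in limma's test. At an unadjusted p below 0.05 the counts were 55 and 0, and no other tool was run. The median log2 fold change was -0.41, against -0.01 over all tested genes. In 45 members (59.2%, against 25.9% of all tested genes) each of the 3 Myc-off IDs lay below every Myc tumour ID, and in 0 members (19.6% of all tested genes) each lay above. The number that fell ran from 42 with median-ratio scaling (25.6% of all tested genes fell) to 65 with each tumour as its own sample (33.6%). Of the 52, 36 were called lower in all alternatives. This comparison shares the Myc tumours with the one above, so the 2 sets of fold changes are not independent.

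The largest fall was that of Mrps27, a mitochondria-specific protein of the small subunit with pentatricopeptide repeats. The 3 Myc-off IDs were at 10.3, 11.4 and 13.6 eRPKM, below the Myc tumours, at 29.1 to 37.8 (median 31.5), and below control liver, at 16.4 to 27.8 (median 19.0). The log2 fold change was -1.46 ± 0.14 against Myc tumours (SE, adjusted p = 4.8e-10) and -0.76 ± 0.13 against control liver (adjusted p = 1.2e-05). Mrps27 exons overlap those of 6430562O15Rik on the other strand, and the kit does not mark strand. Mrps10, a protein of the small subunit's head, showed the same order of groups. Its 3 Myc-off IDs, at 19.7, 20.8 and 20.9 eRPKM, lay below the lowest Myc tumour (35.5) and the lowest control liver (30.6). It fell by 0.93 ± 0.09 log2 units against Myc tumours (adjusted p = 9.6e-10) and by 0.72 ± 0.09 against control liver (adjusted p = 3.4e-08).

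Other large falls ended in the range of control liver, apart from ID150584, which lay above it in some genes. Mrpl19 was at 7.67, 8.70 and 11.5 eRPKM in the Myc-off IDs, a log2 fold change of -1.27 ± 0.12 against Myc tumours (adjusted p = 2.5e-10) and 0.06 ± 0.11 against control liver (adjusted p = 0.65). Mrps26, another mitochondria-specific small-subunit protein, was at 31.3, 33.5 and 34.7, below all 7 Myc tumour IDs (61.6 to 75.3). These values lay inside the range of control liver (28.8 to 57.5) and below its median of 37.1. Against Myc tumours it fell by 1.03 ± 0.13 log2 units (adjusted p = 1.3e-07). Mrps25 fell by 0.86 log2 units, Mrpl3 and Mrpl47 by 0.84 and Mrps9 by 0.82. In each of these 4 genes ID150584 was the highest of the 3 Myc-off IDs, and for Mrps25 (7.23 eRPKM), Mrps9 (16.2) and Mrpl3 (19.1) it lay above every control ID. These 3 genes were still called higher than in control liver, and those calls were lost without ID150584.

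Mrpl12, the member with the highest level, was at 61.2, 62.5 and 91.6 eRPKM in the Myc-off IDs and at 88.1 to 128 in Myc tumours. It fell by 0.59 ± 0.11 log2 units (adjusted p = 6.4e-05), and its value was -0.76 without Myc-off ID150584, the ID at 91.6. Mrps30 stood at -0.78, Mrps18b at -0.55 and Mrps18a at -0.36 (adjusted p = 4.7e-08, 2.8e-05 and 0.0059 in limma's test). Mrps12 stood at -0.22 ± 0.15 (adjusted p = 0.23), and its 3 values, 37.1, 40.0 and 40.2 eRPKM, overlapped those of Myc tumours, 39.2 to 56.9.

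A few members that were high in tumours did not fall. Mrps36 was at 26.4, 32.2 and 32.7 eRPKM in the Myc-off IDs, close to the range of Myc tumours (26.9 to 35.6) and above every control ID (10.7 to 21.3). Its log2 fold change was -0.02 ± 0.16 against Myc tumours (adjusted p = 0.95; 0.05 with median-ratio scaling and 0.07 with quantile normalisation) and 0.92 ± 0.16 against control liver (adjusted p = 8.3e-06). Mrpl50, a mitochondria-specific protein of the large subunit, was at 75.1, 86.8 and 88.3 eRPKM in the Myc-off IDs, at 74.1 to 93.4 in Myc tumours and at 38.9 to 59.4 in control liver. Its log2 fold change was 0.01 ± 0.12 against Myc tumours (adjusted p = 0.94; -0.18 with quantile normalisation) and 0.65 ± 0.11 against control liver (adjusted p = 8.8e-06).

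The remaining small differences were those of Mrpl23 at 0.26 (adjusted p = 0.17), Mrps21 at 0.22 (adjusted p = 0.14), Mrpl24 at 0.12, Mrpl14 at 0.05, Mrps18c at 0.02 and Mrpl51 at -0.05 (0.01 with median-ratio scaling). None of these 6 passed the limma test. Without the 8 libraries with low Gapdh, 54 members fell and 2 rose, Mrpl23 and Mrps21 (all tested genes, 30.8% and 23.9%). Mrpl14, lower in Myc tumours than in control liver, was at 43.5, 44.0 and 58.2 eRPKM, and thus remained below its control median of 65.3. Its log2 fold change against control liver was -0.47 ± 0.12 (adjusted p = 0.0011).

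**Figure D3:**
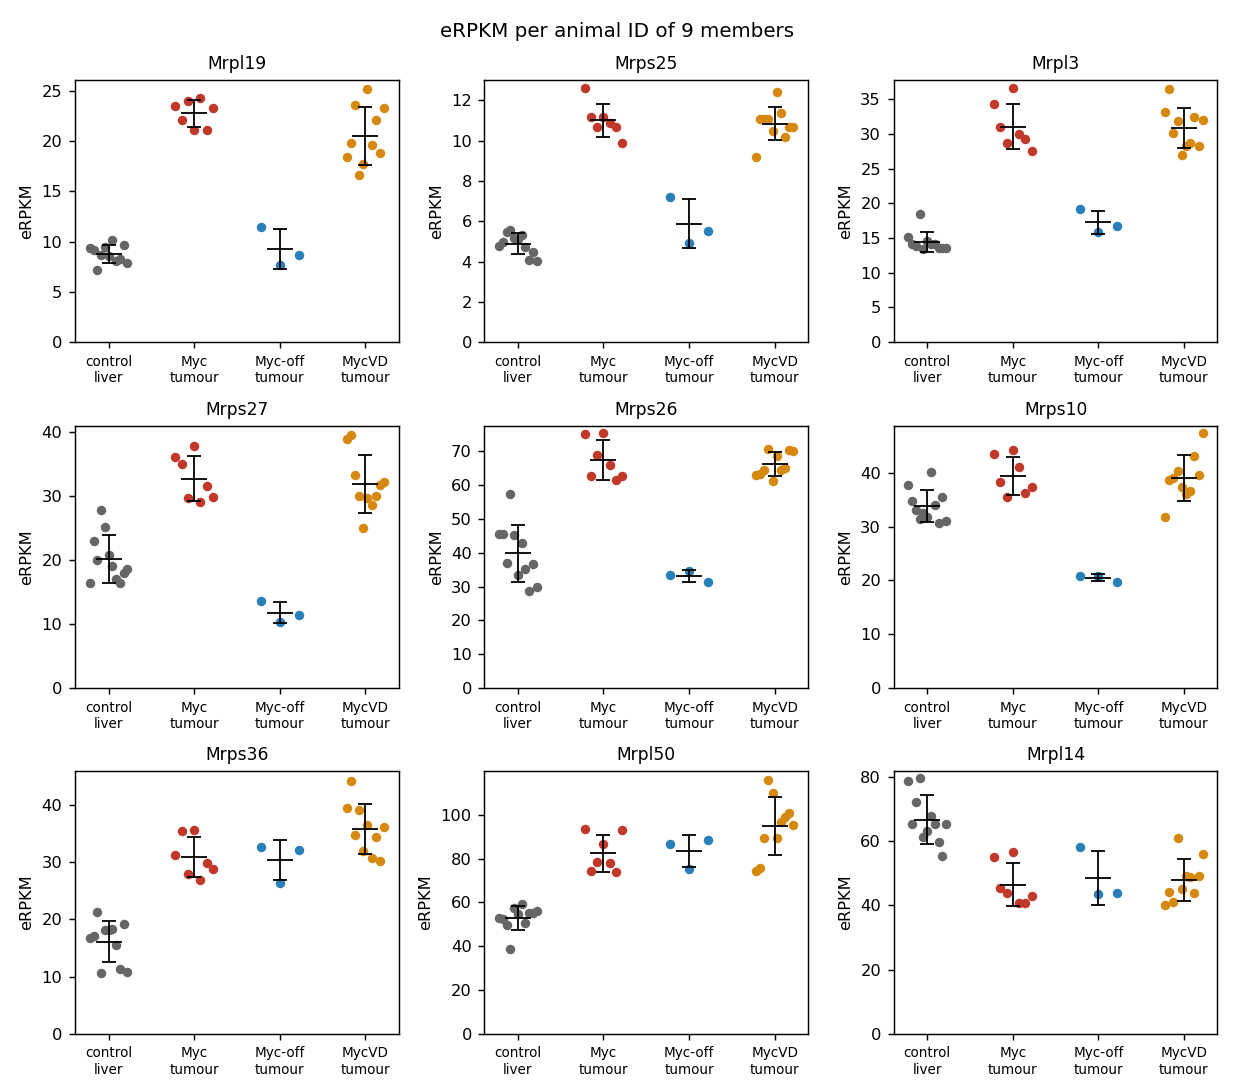
eRPKM of 9 members in each animal ID of the 4 groups; points are IDs, and black marks give the mean and SD. In the top 2 rows the 3 Myc-off IDs lie below all Myc tumours (Mrps27, 10.3 to 13.6 against 29.1 to 37.8), while for Mrps36 and Mrpl50 they lie at the level of the tumours and for Mrpl14 the tumours lie mostly below control liver.

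By role, 22 of 30 large-subunit genes with a bacterial counterpart fell (73.3%, median -0.39), as did 12 of 19 mitochondria-specific large-subunit genes (63.2%, median -0.33). In the small subunit 10 of 16 genes with a bacterial counterpart (62.5%, median -0.35) and 8 of 10 mitochondria-specific genes (80.0%, median -0.65) fell. Of all tested genes 28.2% fell, with a median of -0.01. Differences between the classes were not tested. The fall was of like size in members with few and many reads: the median was -0.39 in 56 members with over 200 reads per kb and -0.42 in 20 members with fewer.

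Against control liver, Myc-off tumours had 10 members higher (13.2%; 36.3% of all tested genes) and 20 lower (26.3%; 21.6% of all tested genes). The median log2 fold change was -0.08, against 0.15 over all tested genes. All 3 Myc-off IDs lay above every control ID in 2 members (2.63%; 26.4% of all tested genes) and below in 11 (14.5%; 13.7%). With median-ratio scaling 2 members were higher and 37 lower (all tested genes, 28.2% and 30.7%), and the medians were -0.26 for the members and -0.03 for all tested genes. Besides Mrps27 and Mrps10, the lowest were Mrps24 at -0.66 ± 0.11, Mrpl55 at -0.60 ± 0.13, Mrpl16 at -0.48 ± 0.08, Mrpl14 at -0.47 and Mrpl12 at -0.45 ± 0.11. Mrpl16, a protein of the large subunit, was at 27.5, 29.5 and 33.8 eRPKM in the Myc-off IDs and at 35.2 to 45.6 in control liver, where Myc tumours had 39.2 to 50.5. Besides Mrps36 and Mrpl50, Mrpl54 was higher at 0.43 ± 0.13 (adjusted p = 0.0046), and Mrps22 at 0.33 (adjusted p = 0.011) and Mrpl45, which anchors the ribosome to the inner membrane, at 0.33 (adjusted p = 0.0092) followed. The other 5 called higher were Mrpl3 at 0.24, Mrps25 at 0.24 (-0.21 with quantile normalisation), Mrps9 at 0.22, Mrpl9 at 0.21 and Mrpl40 at 0.20 (adjusted p = 0.023, 0.049, 0.03, 0.033 and 0.049 in limma's test). Without Myc-off ID150584 the calls of these 5 (0.17, 0.09, 0.07, 0.10 and 0.16), of Mrps22 (0.27) and of Mrpl45 (0.22) were lost. Without ID153344 those of Mrps22 (0.30), Mrpl9 (0.21), Mrps25 (0.27) and Mrpl40 (0.20) were lost. In all, the call of Mrpl40 was lost in 9 of the 14 leave-outs and that of Mrps25 in 8. Without ID150584 only 4 members were called higher. Mrps6 and Mrpl48 had larger values, 0.34 and 0.36, and did not pass.

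Tumours with the V394D form differed little from Myc tumours in these genes. The median difference was 0.05 log2 units over the members and -0.04 over all tested genes. In limma's test 1 member was higher and 0 were lower, where 6.56% of all tested genes were higher and 9.17% lower. No member had IDs that did not overlap between these groups, which 0.783% of all tested genes did upwards and 1.32% downwards. At an unadjusted p below 0.05 the counts were 6 and 1, and no other tool was run. The member called was Mrpl18, a protein of the central protuberance, at 76.8 to 90.4 eRPKM in MycVD tumours (median 80.9) and 67.5 to 84.4 in Myc tumours (median 73.0). Its log2 fold change was 0.13 ± 0.04 (adjusted p = 0.042), and the call was lost without 9 of the 17 IDs taken 1 at a time and with 5 other settings, 1 of which (quantile normalisation) gave -0.01. Single differences ran from -0.25 for Mrps34 to 0.24 for Mrps21. Among the genes named above, Mrps36 stood at 0.21 ± 0.12, Mrps12 and Mrps18a at 0.11, Mrpl12 at 0.10 ± 0.08, Mrps30 at 0.07 ± 0.07, Mrps18c at 0.04, Mrps18b at 0.03 and Mrpl3 at -0.01 ± 0.07, and none of these 8 passed. With quantile normalisation Mrpl12 stood at -0.09, Mrps18b at -0.11 and Mrps30 at 0.00, and with median-ratio scaling Mrpl3 stood at 0.05.

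Against control liver, MycVD tumours had 57 members higher (75%; 49.1% of all tested genes) and 4 lower (5.26%; 31.1% of all tested genes), with a median of 0.37 against 0.22 over all tested genes. In 23 members (30.3%; 25.8% of all tested genes) every MycVD ID lay above every control ID, and in 0 (14.7% of all tested genes) below. With median-ratio scaling 41 were higher and 11 lower (all tested genes, 41.4% and 38.1%), with a median of 0.18 against 0.05. The same controls served for both tumour groups, so these values and those of Myc tumours are given side by side without a measure of likeness. Mrpl19 stood at 1.17 ± 0.07 (1.33 in Myc tumours), Mrps36 at 1.15 ± 0.10 (0.94), Mrps25 at 1.08 ± 0.07 (1.10), Mrpl3 at 1.07 ± 0.06 (1.08) and Mrpl47 at 1.06 ± 0.11 (1.05). The lower members were Mrpl14 at -0.48 ± 0.08 (-0.52), Mrpl43 at -0.33 ± 0.09 (-0.23), Mrpl55 at -0.21 ± 0.09 (-0.18) and Mrpl27 at -0.14 ± 0.06 (-0.22), the last of which was at 0.05 with quantile normalisation. The call of Mrpl55 was lost without any 1 of 5 IDs (control ID125319 and MycVD ID133074, ID133763, ID133764 and ID133765), with values of -0.19 and -0.18.

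Other genes of mitochondrial translation were taken from lists of their known functions. Values with median-ratio scaling or quantile normalisation were drawn up for the 76 members only. How calls in the lists below depend on the scaling was therefore not examined. Of all tested genes 50.0% rose and 29.9% fell in Myc tumours (median 0.27). After the switch-off 28.2% fell and 22.2% rose (median -0.01). A further 6 proteins of the mitochondrial ribosome have symbols of another form. Of these, 4 rose in Myc tumours (66.7%) and 2 fell after the switch-off (33.3%). Ict1 (now Mrpl58), a peptidyl-tRNA hydrolase of the large subunit, stood at -0.02 ± 0.06 and -0.13 ± 0.09 (adjusted p = 0.8 and 0.24). Ptcd3, like Mrps27 a repeat protein of the small subunit, rose by 1.10 ± 0.07 and then stood at -0.82 ± 0.10 against Myc tumours (adjusted p = 1.2e-15 and 2.3e-08). Dap3, a GTP-binding protein of the small subunit, rose by 0.78 ± 0.11 (adjusted p = 2.1e-07) and stood at -0.29 ± 0.16 after the switch-off (adjusted p = 0.14).

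Of 24 genes for the assembly of the mitochondrial ribosome and the modification of its RNA, 16 rose (66.7%) and 1 fell (4.17%) in Myc tumours (median 0.46). After the switch-off 19 fell (79.2%) and 1 rose (4.17%), with a median of -0.71. Noa1, a GTPase of ribosome assembly, averaged 6.13 ± 1.00 eRPKM in control liver (SD, n = 11), 24.5 ± 1.15 with Myc on (n = 7) and 6.44 ± 1.94 with Myc off (n = 3). Its log2 fold changes were 1.92 ± 0.10 and -1.88 ± 0.14 (adjusted p = 1.3e-17 and 2.5e-12), larger in size than those of any of the 76 members. Nsun4, a methyltransferase of the ribosomal RNA, was the gene that rose after the switch-off, by 0.58 ± 0.12 (adjusted p = 1.2e-04). Mterf4, its partner in the late steps of assembly, was the gene that fell in Myc tumours, at -0.29 ± 0.07.

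Of 15 translation factor genes, 9 rose (60.0%) and 1 fell (6.67%) in Myc tumours. Their median of 0.27 was that of all tested genes. After the switch-off 12 fell (80.0%), with a median of -0.39. Tufm, the elongation factor that delivers transfer RNA, rose by 0.15 ± 0.05 and then fell by 0.30 ± 0.07 log2 units (adjusted p = 0.008 and 9.9e-04). Mtrf1l, a release factor, had the largest value in Myc tumours, 1.01 ± 0.09, and Mtif3, an initiation factor, the smallest, -0.52 ± 0.06. Pdf, which removes the formyl group of new proteins, had the largest fall after the switch-off, -1.09 ± 0.25 (adjusted p = 5.7e-04).

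Of 14 genes for the transcription of mitochondrial DNA and the processing of its RNA, 12 rose (85.7%) and 1 fell (7.14%) in Myc tumours (median 0.59). After the switch-off 10 fell (71.4%), with a median of -0.66. Polrmt, the mitochondrial RNA polymerase, rose by 0.47 ± 0.08 and then fell by 0.85 ± 0.11 log2 units, and Tfam, which packages and transcribes mitochondrial DNA, rose by 0.51 ± 0.06 and then fell by 0.64 ± 0.08. Elac2, which cuts the 3′ ends of transfer RNA, had the largest values, 0.94 ± 0.11 and -1.73 ± 0.16. Hsd17b10, a part of mitochondrial ribonuclease P and a dehydrogenase, was the gene that fell in Myc tumours, at -0.53 ± 0.07.

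Of 7 regulators of mitochondrial biogenesis, 6 rose in Myc tumours (85.7%) and 5 fell after the switch-off (71.4%). Pprc1, a coactivator of nuclear genes for mitochondria that responds to growth signals, averaged 6.37 ± 1.05 eRPKM in control liver, 38.8 ± 4.58 with Myc on and 10.2 ± 3.39 with Myc off. Its log2 fold changes were 2.52 ± 0.12 and -1.94 ± 0.17 (adjusted p = 1.2e-18 and 4.4e-11). Its relative Ppargc1a, the coactivator of the fasting liver, stood at 0.18 ± 0.30 and 0.53 ± 0.43 (adjusted p = 0.58 and 0.31). Gabpa, the DNA-binding part of the ETS factor named above, rose by 0.18 ± 0.08 (adjusted p = 0.033) and stood at -0.24 ± 0.11 after the switch-off (adjusted p = 0.064).

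Lists of other mitochondrial and ribosomal genes gave other counts. Of 83 tested oxidative phosphorylation subunits encoded in the nucleus, 6 rose (7.23%) and 38 fell (45.8%) in Myc tumours (median -0.23). After the switch-off 11 rose (13.3%) and 1 fell (1.20%), with a median of 0.14. Of 77 cytosolic ribosomal proteins, 31 rose in Myc tumours (40.3%, below the 50.0% of all tested genes), with a median of 0.13. After the switch-off 9 fell (11.7%) and 1 rose (1.30%), with a median of 0.10. Of 11 matrix chaperones, proteases and markers of mitochondrial mass, 3 rose (27.3%) and 2 fell (18.2%) in Myc tumours. After the switch-off 3 fell (27.3%) and 1 rose (9.09%). Hspd1, the matrix chaperonin, stood at 0.05 ± 0.09 and -0.21 ± 0.13 (adjusted p = 0.6 and 0.18). The differences between these lists and the 76 members were not tested.

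**Figure D4:**
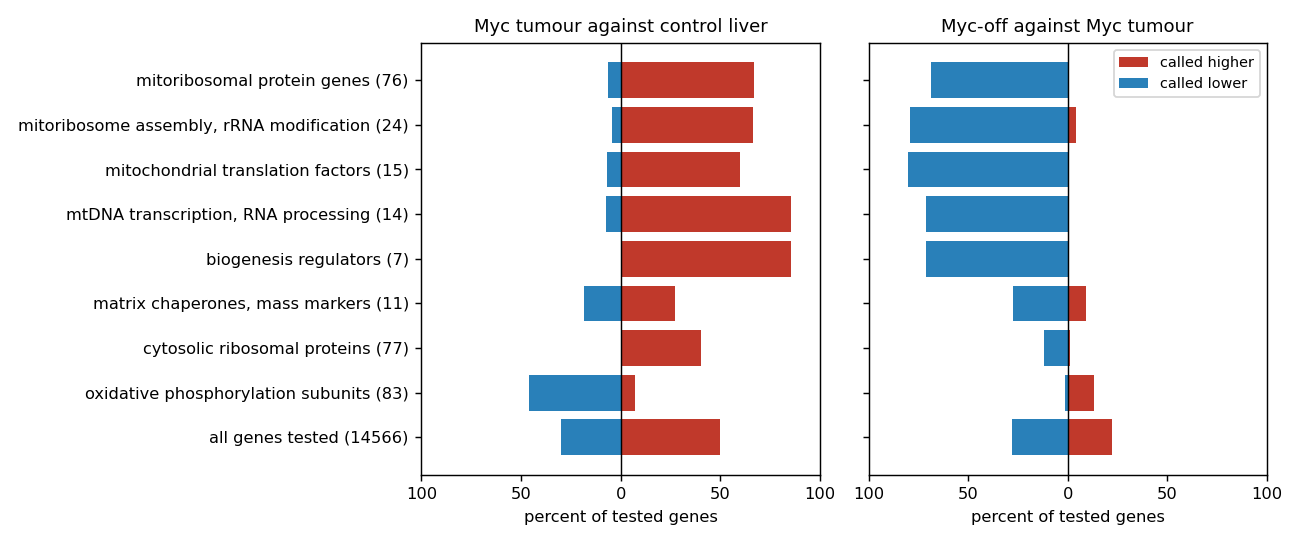
Percent of tested genes in each list called higher (red, to the right) or lower (blue, to the left) by limma at an adjusted p below 0.05, with the number of genes in brackets and all tested genes in the lowest bar. The mitochondrial ribosomal proteins (67.1% higher, then 68.4% lower) stand beside assembly factors (66.7% and 79.2%), while oxidative phosphorylation subunits show 45.8% lower in Myc tumours. With median-ratio scaling the members' counts in the left panel become 30 higher and 16 lower (all tested genes, 41.1% and 38.3%).

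Markers of cell types moved between the same groups, and their part in the results above was not tested. In bulk tissue fewer cells of a type and less RNA per cell cannot be told apart. The summed level of 8 hepatocyte markers ran from 918 to 1628 eRPKM in control, 435 to 703 in Myc, 963 to 993 in Myc-off and 583 to 874 in MycVD IDs, and all 8 fell in Myc tumours and 7 rose after the switch-off. The sum of 6 cycling-cell markers ran from 3.08 to 19.5, 342 to 401, 146 to 191 and 325 to 414 in the same order, and all 6 rose in Myc tumours and 5 fell after the switch-off. The 6 cholangiocyte markers summed to 10.3 to 32.1 in Myc and 33.5 to 135 in Myc-off tumours, and all 5 that were tested rose after the switch-off. The 7 erythroid markers ran from 48.8 to 91.9 in control liver, 134 to 328 in Myc, 132 to 347 in Myc-off and 122 to 307 in MycVD tumours. Of 6 sinusoidal endothelial markers 5 fell in Myc tumours, where their sum was 33.4 to 54.2 against 131 to 249 in control liver. The sums of 6 macrophage, 6 stellate cell and 6 lymphocyte markers in Myc-off tumours were 149 to 242, 54.9 to 94.3 and 5.55 to 11.3, against 155 to 193, 51.6 to 87.8 and 2.36 to 4.41 in Myc tumours. In control liver they were 125 to 259, 129 to 150 and 1.99 to 5.74. Single markers went both ways in Myc tumours. Of the macrophage markers 2 rose and 1 fell (Clec4f -4.24 to Cd68 2.28), and of the stellate markers 2 rose and 3 fell (Lrat -3.97 to Col1a1 2.63). No marker of these lists was at 0 in every ID.

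Exons of 29 of the 76 genes overlap exons of another gene in the GENCODE M21 annotation, 26 of them on the opposite strand, and named pseudogenes exist for 3 (Mrps36, Mrpl23 and Mrpl48). Reads of such pairs cannot be told apart here. Among the genes described above, Mrpl3 overlaps Gm47106, Mrpl12 overlaps Gm16755, Mrpl18 overlaps Tcp1, Mrps26 overlaps 4930473A02Rik and Mrps30 overlaps B430218F22Rik. Likewise Mrpl19 overlaps Gcfc2, Mrpl14 overlaps Tmem63b, Mrpl47 overlaps Actl6a and Ndufb5, Mrps25 overlaps Nr2c2 and Mrps34 overlaps Nme3 and Mapk8ip3. Of the other genes that fell in Myc tumours, Mrpl43 overlaps Twnk, Mrpl27 overlaps Eme1 and Mrps24 overlaps Urgcp. Mrps6 overlaps Slc5a3 and Gm49711, Mrpl33 overlaps Gm43809, Mrps18b overlaps Gm16279 and Mrpl24 overlaps Rrnad1. Mrpl36 overlaps Ndufs6, Mrpl13 overlaps Mtbp, Mrpl9 overlaps Oaz3 and Mrpl48 overlaps Rab6a. Mrps10, Mrps9, Mrps36 and Mrpl50 overlap no annotated exon of the kinds searched.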

How the data were processed

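RNA sequencing of 46 libraries gave 1 table of 21671 genes. The deposited values are eRPKM (exonic RPKM), computed by the authors, and the submitters' processing notes list mm9 as the build and TopHat and TopHat2 (2.0.8) as tools. Each library's depth, 3.25 to 12.6 M reads, was recovered from the steps between the values of low genes (3971 genes for the common factor). A length was then found for 18787 of the 21671 genes. It was accepted only where all values of a gene were whole reads within 0.001, so that match is no check of the depths. No 2 of the 258 pairs of libraries within a group differed by as little as sampling noise: the lowest chi-square per degree of freedom was 3.25.

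Libraries of 1 ID were averaged and limma 3.58.1 (R 4.3.3) was run on log2(eRPKM + 0.5) over the 31 IDs of all 4 groups, for 5 comparisons. A gene was tested where 3 or more IDs reached 1 eRPKM (14566 genes), with Benjamini-Hochberg adjustment over all of them and a threshold of 0.05. Fold changes on this scale understate those of low genes. The fit was tested on simulated data. Since the values are no counts, no count model was used.

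Members and lists were chosen with earlier results of these data known. The members named are the 8 largest and 8 smallest log2 fold changes for Myc against control, Myc-off against Myc and Myc-off against control, up to 5 called members per direction for MycVD against either, members called against the majority, the 5 highest and 5 lowest levels, and a fixed set (Mrpl12, Mrpl3, Mrps12, Mrps36, Mrps18a, Mrps18b, Mrps18c and Mrps30), from which the text describes a selection. Of other lists the extremes and fixed genes are named. The alternatives were pseudocounts of 0.1 and 1, other filters, median-ratio scaling, quantile normalisation, each tumour as its own sample, a depth term, a correction for reads with the same start position, fits of 2 groups, and leave-outs. Leaving out the 8 libraries with low Gapdh was chosen after seeing the data.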

Additional observations from a re-analysis of the deposited data

Results flagged for a closer look

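In MycVD ID133762, 3 members stood apart from the other 9 IDs of the group, by a gap to the next ID that is large against the group's range. Mrpl18 was at 90.4 eRPKM, where the next ID had 82.1 and the lowest 76.8. Mrpl40, a large-subunit protein, was at 58.9, where the next ID had 50.4 and the lowest 42.8. Mrps28, a small-subunit protein, was at 55.9, where the next ID had 47.8 and the lowest 42.4. In all, 78 sets of values were searched for an ID set apart in this way. They were the members picked by fold change or by the fixed set, and the sum over all members. Only Myc and MycVD tumours were searched, so other members and the control and Myc-off groups were not covered. By its cut-offs the rule would set apart at most about 1 in 20 by chance alone, a nominal rate that was not measured here.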

How the results depend on the processing

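Counts of members moved with the scaling and with the averaging of tumours. In Myc tumours against control liver, median-ratio scaling gave 30 higher and 16 lower (all tested genes, 41.1% and 38.3%) with a median of 0.07. Mrpl12 (-0.11), Mrps12 (-0.11), Mrps18a (-0.01), Mrps18b (-0.08) and Mrps18c (-0.20) changed sign. Of these, only Mrps18c was called lower with that scaling (adjusted p = 0.026 in limma's test). Quantile normalisation gave Mrpl27 0.07, Mrps21 0.06, Mrps16 0.23 and Mrps18c -0.05. Of these 4, only Mrps16 was called, as higher (adjusted p = 5.3e-04 in limma's test). The number called lower was 2 with no filter on low values or with the start position correction, and 3 with a depth term or with tumours not averaged per ID. Mrps16 stood at 0.01 with the start position correction and with tumours not averaged, and Mrps12 at -0.06 with a depth term. The cause of these shifts was not tested.

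For the switch-off, members called lower ran from 42 (median-ratio scaling) to 65 (tumours not averaged) over the settings. Of all tested genes 25.6% and 33.6% were called lower in these 2 settings. Values near 0 changed sign. Mrps36 stood at 0.05 with median-ratio scaling, 0.07 with quantile normalisation, 0.06 with a depth term and 0.04 without the 8 low-Gapdh libraries, where 2 members were called higher. Mrpl50 stood at -0.18 with quantile normalisation, -0.17 with a depth term, -0.09 with the start position correction, -0.01 with tumours not averaged, and -0.04 without the 8 libraries and without the shallowest Myc-off library. Mrpl51 stood at 0.01 with median-ratio scaling. Mrps18c stood at -0.05 and Mrpl14 at -0.01 with tumours not averaged, and at -0.02 and -0.01 with a depth term.

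For MycVD against Myc tumours, members called higher were 6 with median-ratio scaling (8.9% of all tested genes) and 5 without the 8 libraries (11.2%). They were 0 with tumours not averaged, a depth term, the start position correction or only the 2 groups compared. Members called lower were 1 with tumours not averaged, without the 8 libraries and with only the 2 groups. Quantile normalisation gave Mrpl18 -0.01, Mrpl12 -0.09, Mrps18b -0.11 and Mrps30 0.00. Tumours not averaged gave Mrpl12 -0.01, Mrps18b -0.04 and Mrps18c -0.05. Mrpl12 was at -0.01 and Mrpl3 at 0.02 with a depth term, Mrpl3 at 0.05 with median-ratio scaling and Mrps18b at -0.01 with the start position correction.

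For Myc-off tumours against control liver, median-ratio scaling gave 2 higher, 37 lower, a median of -0.26, Mrps18c -0.12 and Mrps30 -0.09. Quantile normalisation gave Mrps25 -0.21 and Mrps12 0.00, and fitting only the 2 groups called 6 higher. For MycVD tumours against control liver, median-ratio scaling gave 11 lower, a median of 0.18 and Mrps18c -0.10, quantile normalisation gave Mrpl27 0.05 and Mrps18c 0.00, and 2 members were lower with the start position correction and without the 8 libraries.

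Leaving out each ID in turn, members called higher in Myc tumours ran from 46 to 53 and called lower from 2 (without Myc ID126947) to 7 (without control ID141048), with Mrps18c at 0.00 to 0.09. Mrps18b lost its call without Myc ID125320 or ID125324 (0.15 each). For the switch-off, called lower ran from 45 to 53 and called higher from 0 to 1 (Mrps21, without Myc ID125324), with Mrpl14 at -0.09 to 0.13, Mrpl50 at -0.03 to 0.08, Mrps18c at -0.03 to 0.07 and Mrps36 at -0.07 to 0.08. For MycVD against Myc, called higher ran from 0 to 3, with Mrpl3 at -0.04 to 0.03 and Mrps18b at 0.00 to 0.06. For Myc-off against control, called higher ran from 4 (without Myc-off ID150584) to 13 and called lower from 16 to 23, with Mrps30 at -0.02 to 0.21. Only 3 IDs stand for Myc-off tumours, which limits the precision of each comparison with them. No paired analysis was run because the IDs of the groups are different and the labels state no pairing across groups.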
